A study of Mus musculus with 34 samples.

Results

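The 38 genes described here encode plasma proteins that the liver makes for blood clotting, clot breakdown and complement. They were chosen by symbol from the 78298 gene rows of a liver RNA-seq table, and all 38 had enough counts to be tested among 14980 genes. Of the 38, 23 act in clotting, its control and clot breakdown or circulate beside them, and 15 belong to complement. Livers came from wild-type (WT) mice and from SIRTintKO mice, in which *Sirt1*, the gene of an NAD-dependent deacetylase, was removed in the intestinal epithelium. In SIRTintKO mice a Cre recombinase driven by the Villin promoter cut an exon of *Sirt1* flanked by loxP sites, and WT mice carried the same flanked exon without Cre. All were young adult male mice of the C57/Bl6 background. Livers were taken at 0 hours, from untreated mice, or 6 or 24 hours after partial hepatectomy (PHx), the surgical removal of the left lateral and median lobes. The WT groups held 6 libraries at 0 hours, 6 at 6 hours and 4 at 24 hours, and the SIRTintKO groups held 6, 5 and 7. The labels call them biological replicates but do not tie each library to a mouse. As the deletion was outside hepatocytes, the level of *Sirt1* in liver RNA does not check the genotype.

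Clotting proceeds as a cascade in which inactive precursors (zymogens) are cut into proteases one after another until thrombin turns fibrinogen into fibrin, while antithrombin, heparin cofactor and the protein C system hold the cascade back and plasmin dissolves the clot. Complement is a second plasma cascade: lectins such as mannose-binding lectin, or antibodies, start it, convertases split C3, and the terminal proteins assemble a pore in membranes. Hepatocytes are the main source of nearly all of these proteins. Some of them, fibrinogen and C3 among them, are acute-phase proteins, whose liver transcripts rise when interleukin-6 acts through STAT3 and together with C/EBP factors, and HNF1 and HNF4 hold up the basal expression of many liver genes.

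To show the regulatory sequence next to genes that moved together, the 250 bases before the start site are printed for the 3 fibrinogen genes, which rose together, and for 3 genes of the terminal complement proteins that were low at 24 hours. They are taken from RefSeq on GRCm38.p6, which is not the build of the counts (GRCm39 in the submitters' processing notes), and an entry was found for 30 of the 38 genes. Each is given 5′ to 3′ on the strand of its gene, and capitals mark matches, on either strand, to CTGGGAA (the core of interleukin-6 response elements), TTCNNNGAA (a STAT palindrome), TTGCNNAA (C/EBP) or GTTAAT (an HNF1 core). The *Fgg* window lies at chr3:83007474-83007723 (+ strand), the *Fga* window at chr3:83025903-83026152 (+ strand) and the *Fgb* window at chr3:83049864-83050113 (- strand).
Fgg: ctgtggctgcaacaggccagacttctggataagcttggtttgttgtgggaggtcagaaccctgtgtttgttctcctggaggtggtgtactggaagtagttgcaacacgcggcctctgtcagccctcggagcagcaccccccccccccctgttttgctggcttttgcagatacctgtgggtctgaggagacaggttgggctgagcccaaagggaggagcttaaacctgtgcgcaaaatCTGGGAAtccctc
Fga: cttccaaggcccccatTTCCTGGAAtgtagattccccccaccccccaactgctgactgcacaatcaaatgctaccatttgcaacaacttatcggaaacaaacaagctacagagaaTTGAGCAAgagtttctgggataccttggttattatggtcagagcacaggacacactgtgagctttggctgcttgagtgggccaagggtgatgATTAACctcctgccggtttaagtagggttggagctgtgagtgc
Fgb: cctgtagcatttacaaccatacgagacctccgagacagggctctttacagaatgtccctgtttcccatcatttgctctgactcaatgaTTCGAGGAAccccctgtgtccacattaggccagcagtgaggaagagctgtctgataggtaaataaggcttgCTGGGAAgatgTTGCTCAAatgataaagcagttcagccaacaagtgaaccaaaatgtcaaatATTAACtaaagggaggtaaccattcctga
The windows of *C6* and *C9* lie at chr15:4726960-4727209 and chr15:6445096-6445345, and that of *C8b* at chr4:104766067-104766316, all on the + strand.
C6: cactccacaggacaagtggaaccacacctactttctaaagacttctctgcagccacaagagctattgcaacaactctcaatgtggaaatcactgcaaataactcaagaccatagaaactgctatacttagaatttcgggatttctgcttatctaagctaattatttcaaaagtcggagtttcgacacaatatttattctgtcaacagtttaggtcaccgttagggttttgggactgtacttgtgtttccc
C9: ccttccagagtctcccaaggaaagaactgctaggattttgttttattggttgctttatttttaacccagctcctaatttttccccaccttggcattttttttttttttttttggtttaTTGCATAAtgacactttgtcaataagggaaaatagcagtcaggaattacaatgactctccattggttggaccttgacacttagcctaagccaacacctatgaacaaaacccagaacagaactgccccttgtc
C8b: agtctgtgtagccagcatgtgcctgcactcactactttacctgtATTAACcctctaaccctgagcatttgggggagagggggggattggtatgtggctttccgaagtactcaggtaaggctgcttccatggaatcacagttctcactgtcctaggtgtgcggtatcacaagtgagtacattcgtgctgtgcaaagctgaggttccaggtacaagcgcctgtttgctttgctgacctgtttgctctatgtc
CTGGGAA was found in the windows of *Fgg*, 13 to 7 bases before the start, and *Fgb*, 91 to 85 bases before it, and in no other of these 6 windows. It was present in 4 of the 30 members with an entry (*F9*, *Fgb*, *Fgg* and *Masp2*; 13.3%) and in 9.1% of all 32851 RefSeq windows of the same length. The window of *Fgb* also held matches to the other 3 motifs, with TTGCTCAA at 80 to 73 bases before the start. That of *Fga* held TTCCTGGAA, and also TTGAGCAA and ATTAAC, which match TTGCNNAA and GTTAAT on the opposite strand. *C9* held a C/EBP match, *C8b* an HNF1 core and *C6* no match. Over the members, TTCNNNGAA was found in 6 windows (20%, against 7.02% of all windows), TTGCNNAA in 7 (23.3%, against 9.56%) and GTTAAT in 9 (30%, against 6.43%). Matches to TTCNNNGAA and CTGGGAA overlapped in *F9* and *Masp2*. The HNF1 palindrome, the HNF4 core CAAAGTCCA and the FXR inverted repeat were searched as well and matched 0 of the 30 members and 0.00913%, 0.384% and 0.00609% of all windows. These counts describe letters in a short window, and binding was not measured.

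Libraries held 14892122 to 23480492 counts, with a median of 16807340, and no member had fewer than 212 counts in any library. Levels are given below as CPM, counts scaled to the size of the library, after TMM normalization, which brings libraries to a common composition. The 38 genes together took a median of 4.71% of all counts in WT livers at 0 hours, 9.06% at 6 hours and 9.66% at 24 hours, and 4.70%, 9.07% and 7.61% in SIRTintKO livers. The 11 hepatocyte markers were abundant in every library, at 33785 to 87126 CPM in sum. Their summed level had a median of 75721 CPM in WT and 78111 CPM in SIRTintKO livers at 0 hours, 61321 and 64613 CPM at 6 hours and 36655 and 54552 CPM at 24 hours, and 4 of the 11 were lower by the test at 24 than at 0 hours in WT livers and 5 in SIRTintKO livers, with none higher. The part of a lower hepatocyte share in the lower members at 24 hours was not tested. Neutrophil markers (6 of 7 tested) summed to 4.27 to 22.9 CPM at 0 hours, 7.47 to 110.7 CPM in WT livers at 24 hours and 23.3 to 953 CPM in SIRTintKO livers at 24 hours, and all 6 were higher at 24 than at 0 hours in SIRTintKO livers. In whole liver, fewer hepatocytes and less RNA per hepatocyte cannot be told apart. The 0 hour libraries carry library numbers of another series than those made after PHx, so handling of the libraries and PHx cannot be told apart in the comparisons with 0 hours. The 4 WT libraries at 24 hours formed separate pairs. On the first principal component of all tested genes (40.67% of the variance) replicates 1 and 2 lay at -86.2 and -95.9, and replicates 3 and 4 at 8.02 and 17.6. In WT replicates 1 and 2 respectively, 11 and 14 of the 38 genes were more than 2-fold below the WT mean at 0 hours, against 0 and 0 in replicates 3 and 4. Among SIRTintKO livers at 24 hours, replicate 5 stood apart, at -8.10 on that component against -49.7 to -80.3, with 3 of the 38 genes more than 2-fold below the mean at 0 hours against 9 to 15 in the other 6. It lay near WT replicates 3 and 4, also on the second component (3.61 against -4.38 and -5.96). The library numbers of these livers are close together, with that of WT replicate 2 next to them. The split thus falls unevenly on the genotypes at 24 hours, and its cause was not tested. Every result at 24 hours below rests on the libraries of that time. WT values at 24 hours are therefore listed by replicate for the genes described in full. Calls of the 38 genes are given below with and without the libraries that stood apart, and those of the other gene lists over all libraries only.

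**Figure D1:**
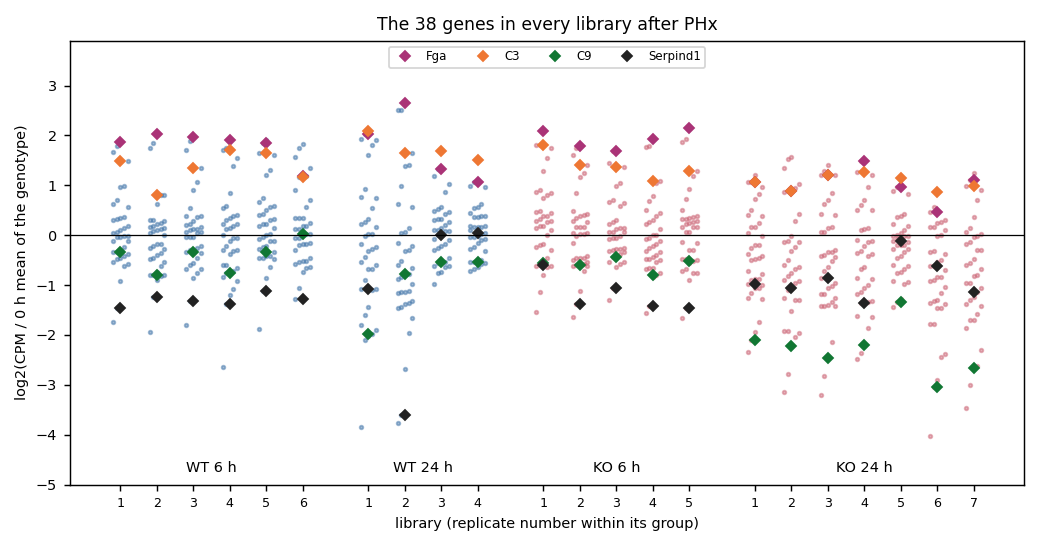
Log2 ratio of each gene's CPM to the 0 hour mean of its genotype (vertical axis) in every library after PHx (horizontal axis, grouped by genotype and time). Small points are the 38 genes, blue in WT and red in SIRTintKO libraries, and diamonds in other colours mark the genes in the legend. WT replicates 3 and 4 and SIRTintKO replicate 5 at 24 hours have 0, 0 and 3 genes more than 2-fold below the 0 hour level, against 9 to 15 in the other 24 hour libraries.

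To ask how hepatic clotting and complement genes respond to PHx, each time point was compared with 0 hours within a genotype using the quasi-likelihood test of edgeR, with p-values adjusted over all 14980 genes and a threshold of 0.05. At 6 hours after PHx, 10 of the 38 genes were higher and 8 lower in WT livers, where 18.9% of all genes were higher and 18.5% lower. In SIRTintKO livers 11 were higher and 7 lower, against 20.9% and 17.6% of all genes. At 24 hours, 8 were higher and 12 lower in WT livers (19.5% and 14.6% of all genes), and 7 were higher and 23 lower in SIRTintKO livers (26.2% and 24% of all genes). The median log2 fold change of the 38 genes was 0.02 in WT and 0.11 in SIRTintKO livers at 6 hours and -0.14 and -0.45 at 24 hours, beside 0.02, 0.01, 0.02 and 0.04 for all genes. With a log2 fold change over 1 in size required as well, which is how the study defined its genes, the counts were 6 higher and 2 lower in each genotype at 6 hours, beside 7.17% and 8.4% of all genes in WT and 7.86% and 8.7% in SIRTintKO livers. At 24 hours they were 6 and 5 in WT (8.32% and 7.4% of all genes) and 4 and 12 in SIRTintKO livers (11.9% and 11.1%). The groups did not overlap for 10 higher and 9 lower genes in WT livers at 6 hours (11.5% and 12.6% of all genes), and for 5 higher and 11 lower genes in SIRTintKO livers at 24 hours (11% and 10.9% of all genes). The WT count at 24 hours was 28 without WT replicates 3 and 4, where 48.9% of all genes passed, and 6 without replicates 1 and 2, where 5.49% did (*C3*, *Fga*, *Fgb*, *Fgg* and *Pros1* higher, *Proc* lower).

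**Figure D2:**
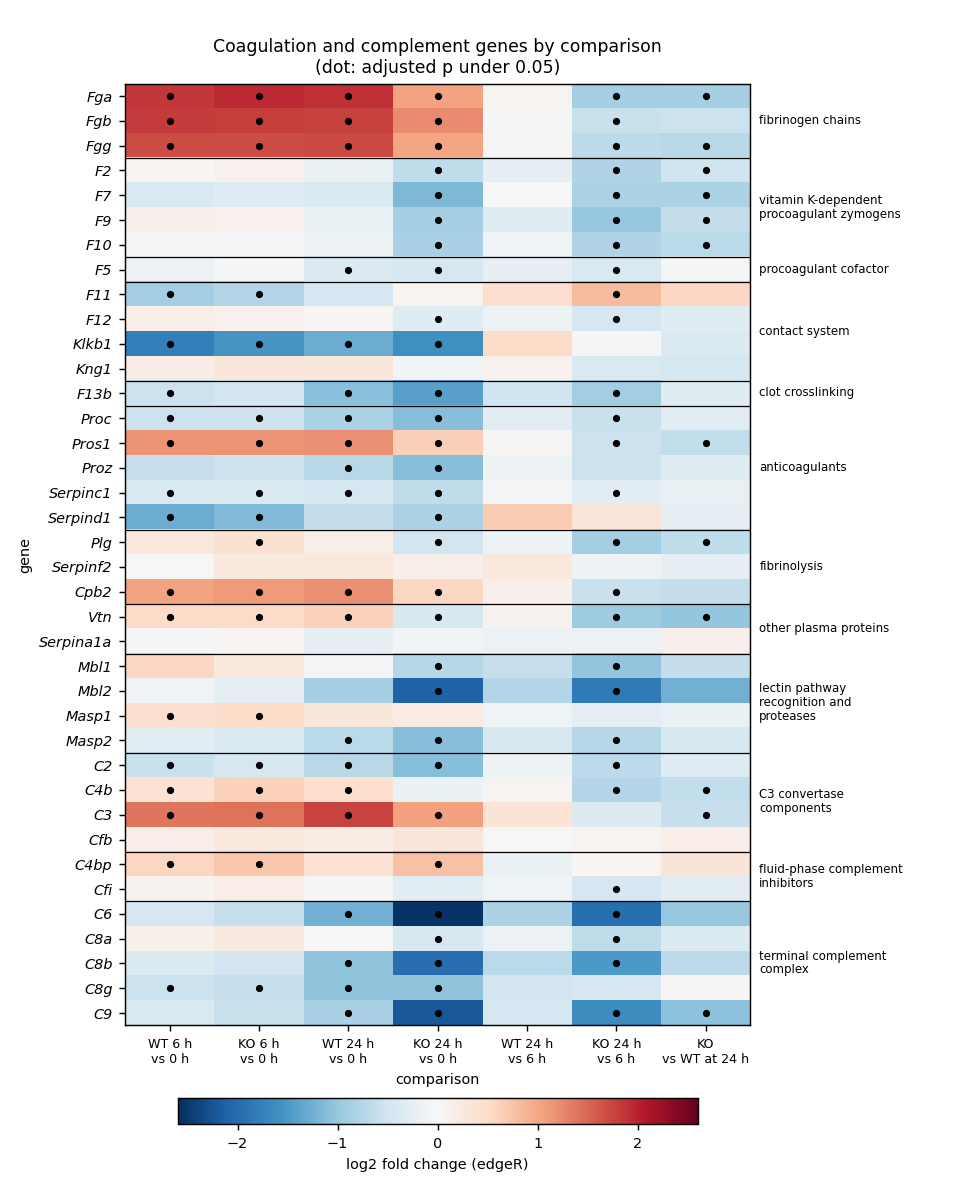
Log2 fold change of each of the 38 genes (rows, grouped by role) in each comparison (columns), with red for higher and blue for lower and a dot where the adjusted p of edgeR is under 0.05. The fibrinogen genes are red against 0 hours in all columns, and the terminal complement genes are blue at 24 hours, with more dots in SIRTintKO than in WT livers.

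The 3 fibrinogen chains rose most at 6 hours. *Fga* encodes the alpha chain, and its lowest, median and highest level at 0 hours was 4560, 6652 and 7087 CPM in WT and 4508, 6287 and 7639 CPM in SIRTintKO livers. At 6 hours after PHx it stood at 14440, 23434 and 25912 CPM (lowest, median, highest) in WT livers and at 26649, 21757, 20386, 23976 and 27730 CPM in the 5 SIRTintKO livers. Every liver at 6 hours was above every liver at 0 hours, and the genotypes overlapped at both times. The rise was 3.55-fold in WT (log2 fold change 1.83, 95% interval 1.40 to 2.26, adjusted p = 8.31e-08) and 3.83-fold in SIRTintKO livers (log2 fold change 1.94, 95% interval 1.49 to 2.38, adjusted p = 7.14e-08). By 24 hours the WT libraries in replicate order held 25708, 39921, 15886 and 13242 CPM, and the SIRTintKO libraries 8738, 13132 and 17519 CPM. WT replicates 1 and 2 were above all SIRTintKO livers and replicates 3 and 4 within their range, while every 24 hour liver of both genotypes exceeded the 0 hour livers. Against 0 hours the log2 fold change at 24 hours was 1.91 in WT and 1.05 in SIRTintKO livers (adjusted p = 5.21e-07 and 8.27e-05).

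*Fgb*, the beta chain, went from 4340, 5785 and 7454 CPM in WT and 5086, 5975 and 6966 CPM in SIRTintKO livers at 0 hours to 20016, 21013 and 22196 CPM in WT livers at 6 hours (each lowest, median, highest). The 5 SIRTintKO livers at 6 hours held 20945, 19897, 19151, 20659 and 22576 CPM. These 6 hour levels were nearly level among libraries and did not overlap those at 0 hours (log2 fold change 1.82, 95% interval 1.42 to 2.23, adjusted p = 2.70e-08 in WT, and log2 fold change 1.80, 95% interval 1.38 to 2.21, adjusted p = 7.22e-08 in SIRTintKO livers). At 24 hours *Fgb* was at 22443, 34005, 13539 and 11829 CPM in the WT libraries and at 8751, 14149 and 17139 CPM (lowest, median, highest) in SIRTintKO livers. WT replicates 1 and 2 were above the 6 hour range of WT livers, and replicates 3 and 4 below it. *Fgg*, the gamma chain, held 3992, 5178 and 6965 CPM and 4343, 5287 and 6070 CPM at 0 hours in WT and SIRTintKO livers, and 15714, 17146 and 18952 CPM in WT livers at 6 hours. In SIRTintKO livers at 6 hours it was at 17431, 15925, 14161, 17757 and 18927 CPM. It too did not overlap between 0 and 6 hours (log2 fold change 1.69, 95% interval 1.25 to 2.12, adjusted p = 3.20e-07 in WT, and log2 fold change 1.69, 95% interval 1.25 to 2.14, adjusted p = 7.01e-07 in SIRTintKO livers). At 24 hours its levels were 18649, 30276, 10826 and 10396 CPM in the WT libraries and 6288, 9793 and 15391 CPM in SIRTintKO livers, with WT replicates 1 and 2 again the highest. Between 6 and 24 hours all 3 chains fell in SIRTintKO livers, by 0.88 (*Fga*), 0.58 (*Fgb*) and 0.67 (*Fgg*) on the log2 scale (adjusted p = 0.00202, 0.0252 and 0.0164). In WT livers the values were 0.08, -0.04 and 0.03 with adjusted p = 0.855, 0.922 and 0.953, a comparison in which the replicates lay on both sides.

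*C3*, the protein on which the complement pathways meet, rose in both genotypes. At 0 hours its lowest, median and highest level was 3582, 4179 and 5535 CPM in WT and 3964, 4544 and 5101 CPM in SIRTintKO livers. At 6 hours it was 7506, 11488 and 14044 CPM in WT livers and 15819, 12099, 11772, 9693 and 11136 CPM in the 5 SIRTintKO livers. No liver at 6 hours was as low as any at 0 hours (log2 fold change 1.39, 95% interval 1.08 to 1.70, adjusted p = 3.50e-08 in WT, and log2 fold change 1.42, 95% interval 1.09 to 1.74, adjusted p = 5.94e-08 in SIRTintKO livers). At 24 hours WT libraries held 18398, 13557, 13866 and 12196 CPM, all above the SIRTintKO libraries at 8227, 9521 and 10853 CPM, and both genotypes were above their 0 hour levels (log2 fold change 1.75 and 1.07, adjusted p = 8.58e-09 and 9.86e-07).

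Beside *C3*, *Pros1* and *Cpb2* rose more than 2-fold. *Pros1* encodes protein S, the cofactor of activated protein C, which also circulates bound to C4b-binding protein. Its level at 0 hours was 36.4, 47.5 and 66.7 CPM in WT and 41.95, 46.8 and 54.5 CPM in SIRTintKO livers, and at 6 hours 85.6, 112 and 128 CPM in WT and 138, 106, 97.8, 81.4 and 107 CPM in SIRTintKO livers. The 6 hour livers were all above the 0 hour livers (log2 fold change 1.16, 95% interval 0.85 to 1.48, adjusted p = 7.83e-07 in WT, and log2 fold change 1.17, 95% interval 0.84 to 1.496, adjusted p = 1.56e-06 in SIRTintKO livers). At 24 hours the WT libraries held 150.2, 131, 90.1 and 75.9 CPM and the SIRTintKO libraries 57.96, 76.6 and 86.3 CPM, so that WT replicates 1 to 3 exceeded every SIRTintKO liver and replicate 4 did not. *Cpb2* encodes a carboxypeptidase that trims lysines from fibrin and so slows clot breakdown. It stood at 297, 316 and 368 CPM and 286, 321 and 391 CPM at 0 hours in WT and SIRTintKO livers, and at 495, 623 and 950.4 CPM and 806, 786, 655, 681 and 632 CPM at 6 hours. Again the times did not overlap (log2 fold change 1.05, 95% interval 0.64 to 1.47, adjusted p = 1.27e-04 in WT, and log2 fold change 1.11, 95% interval 0.68 to 1.54, adjusted p = 1.17e-04 in SIRTintKO livers). Its levels at 24 hours were 1228, 841, 434 and 423 CPM in WT libraries and 332, 470.5 and 669 CPM in SIRTintKO livers. WT replicate 1 was above all livers at 6 hours, and replicates 3 and 4 were below all of them.

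**Figure D3:**
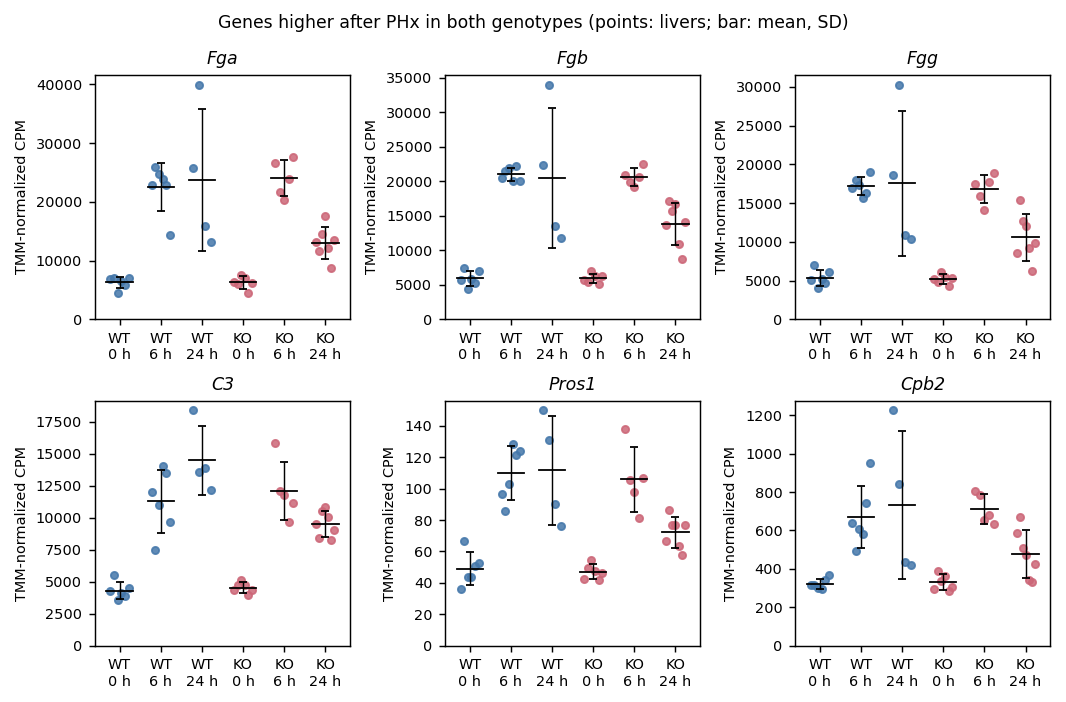
TMM-normalized CPM (vertical axis, from 0) of genes that rose after PHx, by genotype and time (horizontal axis), with 1 point per library and a bar at the group mean with its SD. The 6 hour libraries lie above the 0 hour libraries in both genotypes. At 24 hours the WT libraries split into a high and a low pair for all of these genes but *C3*, widest for the fibrinogen genes and *Cpb2*.

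Smaller rises at 6 hours that passed the test in both genotypes were those of *C4b*, *C4bp*, *Masp1* and *Vtn* (log2 fold changes 0.37 to 0.71), and *Plg* passed in SIRTintKO livers. *C4b*, which supplies part of the classical and lectin C3 convertase, was at 876, 936 and 1121 CPM and 826, 984 and 1057 CPM at 0 hours in WT and SIRTintKO livers and at 796, 1244 and 1618 CPM and 1676, 1709, 1490, 1150 and 1190 CPM at 6 hours. In WT livers the times overlapped since replicate 2 at 6 hours held the lowest value of both groups, and in SIRTintKO livers they did not (log2 fold change 0.37, 95% interval 0.08 to 0.66, adjusted p = 0.0377 in WT, and log2 fold change 0.60, 95% interval 0.30 to 0.90, adjusted p = 0.00182 in SIRTintKO livers). Its near copy *C4a* can take up reads of *C4b*: counted as a sum, the pair had log2 fold changes of 0.13 in WT (adjusted p = 0.513, not past the test) and 0.45 in SIRTintKO livers (adjusted p = 0.0198). At 24 hours *C4b* stood at 1421, 1432, 1173 and 1258 CPM in the WT libraries, all above the SIRTintKO libraries at 678, 839 and 1054 CPM (lowest, median, highest). Against 0 hours its log2 fold change was 0.44 in WT (adjusted p = 0.0268) and -0.17 in SIRTintKO livers (adjusted p = 0.307), and the WT call was lost on the sum with *C4a* (0.23, adjusted p = 0.285), while the difference between the genotypes at 24 hours was not (-0.62, adjusted p = 0.0198). *C4bp* encodes an inhibitor of complement that binds C4b. It held 347, 361 and 422 CPM and 289.8, 369.7 and 413 CPM at 0 hours and 426, 553 and 699 CPM and 679, 506, 589.8, 586 and 603 CPM at 6 hours in WT and SIRTintKO livers, with no overlap between the times (log2 fold change 0.55, 95% interval 0.12 to 0.98, adjusted p = 0.0399 in WT, and log2 fold change 0.71, 95% interval 0.26 to 1.16, adjusted p = 0.0119 in SIRTintKO livers). At 24 hours it was at 702, 172, 517 and 550.1 CPM in the WT libraries and 382, 656 and 928 CPM in SIRTintKO livers, a rise that passed the test in SIRTintKO livers (log2 fold change 0.75, 95% interval 0.33 to 1.17, adjusted p = 0.00309). In WT livers replicate 2 lay far below the other 3, and the test was not passed (log2 fold change 0.39, 95% interval -0.09 to 0.86, adjusted p = 0.207). *Cfi*, which codes for the protease that cleaves C3b and C4b, passed no test against 0 hours (log2 fold changes -0.27 to 0.17).

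The sharpest falls at 6 hours were in *Klkb1* and *Serpind1*, the 2 members below the log2 threshold of -1 in both genotypes. *Klkb1* encodes plasma prekallikrein of the contact system. It held 236, 258 and 277 CPM in WT and 197, 244 and 288 CPM in SIRTintKO livers at 0 hours, and 41.2, 71.8 and 124 CPM and 83.3, 78.5, 98.8, 82.3 and 77.1 CPM at 6 hours. All livers at 6 hours were below all at 0 hours (log2 fold change -1.77, 95% interval -2.41 to -1.13, adjusted p = 5.26e-05 in WT, and log2 fold change -1.53, 95% interval -2.21 to -0.85, adjusted p = 5.55e-04 in SIRTintKO livers). By 24 hours the level was 69.05, 18.8, 151 and 180.2 CPM in the WT libraries and 44.96, 79.2 and 124 CPM in SIRTintKO livers, all still below the 0 hour levels (log2 fold change -1.29 and -1.59, adjusted p = 0.00607 and 6.41e-05). The WT value without replicates 1 and 2 was -0.63 (adjusted p = 0.256). *Serpind1*, heparin cofactor, an inhibitor of thrombin, stood at 360.3, 410.1 and 461 CPM and 304, 433 and 481 CPM at 0 hours and at 150.3, 168 and 188 CPM and 272, 158, 196, 154 and 149.6 CPM at 6 hours in WT and SIRTintKO livers. These ranges were apart as well (log2 fold change -1.29, 95% interval -1.91 to -0.67, adjusted p = 0.00117 in WT, and log2 fold change -1.14, 95% interval -1.79 to -0.49, adjusted p = 0.00553 in SIRTintKO livers). At 24 hours WT replicates 3 and 4 were back in the 0 hour range and replicate 2 was at the lowest value of the series, with 194, 33.8, 415 and 424 CPM in replicate order, while SIRTintKO livers held 160.4, 207 and 379.9 CPM. The fall from 0 hours passed the test in SIRTintKO livers (log2 fold change -0.82, 95% interval -1.41 to -0.24, adjusted p = 0.0177) and not in WT livers (log2 fold change -0.62, 95% interval -1.32 to 0.07, adjusted p = 0.155).

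Of the other contact factors, *F11* was lower at 6 than at 0 hours in WT and SIRTintKO livers, by log2 values of -0.89 and -0.75 (adjusted p = 1.84e-04 and 0.00178). WT livers at 24 hours held 84.2, 28.9, 54.3 and 50.2 CPM in replicate order, of which replicate 2 was the lowest of all libraries and replicate 1 within the 0 hour range of 64.2 to 88.1 CPM (-0.46, adjusted p = 0.0694). It was the only member that was higher at 24 than at 6 hours in SIRTintKO livers by the test (log2 fold change 0.83, 95% interval 0.46 to 1.19, adjusted p = 0.00114), with a range of 34.4 to 60.4 CPM at 6 hours and 49.6 to 101 CPM at 24 hours. *F12*, which starts the contact pathway, fell in SIRTintKO livers at 24 hours (log2 fold change -0.31, 95% interval -0.52 to -0.11, adjusted p = 0.0103) and gave 0.05 in WT livers (adjusted p = 0.78). *Kng1*, the kininogen that carries prekallikrein, passed no test in time (log2 fold changes against 0 hours -0.07 to 0.32). Its reads may be shared with *Kng2*, and the sum of both passed against 0 hours at 6 hours in SIRTintKO livers (0.42, adjusted p = 0.0403) and at 24 hours in WT livers (0.44, adjusted p = 0.0489).

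The 4 vitamin K-dependent zymogens did not pass the test at 6 hours in either genotype. *F2* encodes prothrombin, which becomes thrombin. Its levels were 1303, 1362 and 1529 CPM in WT and 1189, 1394 and 1486 CPM in SIRTintKO livers at 0 hours, and 1335, 1415 and 1530 CPM and 1648, 1399, 1286, 1478 and 1524 CPM at 6 hours, with overlap throughout. By 24 hours WT libraries held 1116, 1186, 1302 and 1295 CPM and SIRTintKO libraries 695, 821 and 1118 CPM. SIRTintKO livers at 24 hours were all below those at 0 and 6 hours (log2 fold change -0.66, 95% interval -0.86 to -0.45, adjusted p = 4.30e-06 against 0 hours, and log2 fold change -0.77, 95% interval -0.99 to -0.56, adjusted p = 5.85e-06 against 6 hours). In WT livers the highest value at 24 hours was just below the lowest at 0 hours, and the change did not pass the test (log2 fold change -0.18, 95% interval -0.42 to 0.06, adjusted p = 0.242).

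*F7*, the zymogen that tissue factor turns into the starter of clotting, was at 79.5, 80.3 and 92.7 CPM and 68.7, 80.3 and 93.3 CPM at 0 hours and at 53.3, 65.3 and 76.2 CPM and 89.8, 57.6, 65.03, 52.1 and 58.2 CPM at 6 hours in WT and SIRTintKO livers. WT libraries at 24 hours held 44.7, 32.2, 89.7 and 89.7 CPM, so that replicates 1 and 2 were below every 6 hour liver and replicates 3 and 4 above every WT liver at 6 hours, and SIRTintKO livers held 21.6, 32.2 and 71.7 CPM. The fall passed in SIRTintKO livers (log2 fold change -1.17, 95% interval -1.59 to -0.74, adjusted p = 3.26e-05), where replicate 5 alone was within the 0 hour range, and not in WT livers (log2 fold change -0.37, 95% interval -0.87 to 0.12, adjusted p = 0.236). *F9*, the zymogen missing in hemophilia B, and *F10*, which joins the intrinsic and extrinsic arms, had the same layout. *F9* held 133, 172 and 184 CPM and 141, 174 and 220.3 CPM at 0 hours, 174, 182 and 205 CPM and 212, 196, 169, 162 and 208 CPM at 6 hours, and 123, 109, 174 and 184 CPM in WT and 73.3, 87.4 and 159.9 CPM in SIRTintKO livers at 24 hours. *F10* held 379.7, 399 and 418 CPM and 373, 405 and 432 CPM at 0 hours, 355, 376 and 452 CPM and 503, 360.5, 388, 321 and 365 CPM at 6 hours, and 263, 255, 499 and 452 CPM in WT and 142, 203 and 432 CPM in SIRTintKO livers at 24 hours. For both, WT replicates 1 and 2 were low and WT replicates 3 and 4 within or above the 0 hour range, and SIRTintKO replicate 5 was the highest of its group. The change from 0 to 24 hours was -0.87 for *F9* and -0.84 for *F10* in SIRTintKO livers (adjusted p = 1.54e-05 and 2.22e-04), and -0.16 and -0.12 in WT livers (adjusted p = 0.475 and 0.667). Without WT replicates 3 and 4 the WT values were -0.50 (adjusted p = 0.0459) for *F9* and -0.61 (adjusted p = 0.0357) for *F10*.

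*F5*, the cofactor of activated factor X, changed less: it held 178, 230.5 and 239.6 CPM and 185, 239.9 and 256 CPM at 0 hours in WT and SIRTintKO livers and 183, 195 and 229.5 CPM and 257, 225, 223, 199.5 and 206 CPM at 6 hours. At 24 hours it was at 185, 122, 198 and 189 CPM in WT libraries, where replicate 2 was low, and 142, 165 and 205 CPM in SIRTintKO livers. The falls at 24 hours were of similar size in WT (log2 fold change -0.36, 95% interval -0.63 to -0.09, adjusted p = 0.0323) and SIRTintKO livers (log2 fold change -0.43, 95% interval -0.66 to -0.20, adjusted p = 0.00206). *F13b*, the carrier subunit of the enzyme that crosslinks fibrin, fell further. Its levels were 71.2, 119 and 128 CPM and 58.1, 121 and 150.1 CPM at 0 hours and 59.7, 79.1 and 84.7 CPM and 92.7, 78.1, 77.5, 81.01 and 69.2 CPM at 6 hours. WT libraries at 24 hours held 36.95, 28.97, 75.98 and 70.2 CPM and SIRTintKO livers 29.7, 42.1 and 66.8 CPM, with replicates 1 and 2 of WT near the SIRTintKO livers and replicates 3 and 4 near the 6 hour level. The log2 fold changes at 24 hours were -1.08 in WT and -1.42 in SIRTintKO livers (adjusted p = 0.00128 and 2.28e-06).

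Of the 5 anticoagulants, *Pros1* rose as described above and *Serpind1* fell. *Proc* (protein C) and *Serpinc1* (antithrombin) also fell in both genotypes at both times, with no overlap with 0 hours in any of the 4 comparisons. *Proc* went from 458 to 518 CPM in WT livers at 0 hours to 269 to 349 CPM at 6 hours and 215 to 329.6 CPM at 24 hours, with a log2 fold change of -0.82 (adjusted p = 5.30e-05). In SIRTintKO livers the ranges were 421 to 603, 318 to 355 and 186 to 291 CPM and the log2 fold change at 24 hours -1.11 (adjusted p = 1.46e-08). *Serpinc1* changed by -0.40 and -0.45 in WT and by -0.37 and -0.67 in SIRTintKO livers at 6 and 24 hours. *Proz*, protein Z, a cofactor for the inhibition of activated factor X, fell in both genotypes at 24 hours (-0.72 in WT and -1.10 in SIRTintKO livers, adjusted p = 0.0463 and 3.36e-04), although WT replicates 3 and 4 (285 and 284 CPM) were within the 0 hour range of 262 to 339 CPM and replicates 1 and 2 (111 and 47.0 CPM) far below it.

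Among the genes of clot breakdown, *Plg*, plasminogen, the precursor of plasmin, held 1922, 2168 and 2413 CPM and 1695, 2208 and 2411 CPM at 0 hours in WT and SIRTintKO livers and 2376, 2637 and 2849 CPM and 3552, 2709, 2553, 2471 and 2694 CPM at 6 hours. The 6 hour livers of SIRTintKO mice were all above those at 0 hours (log2 fold change 0.40, 95% interval 0.13 to 0.67, adjusted p = 0.0176), and in WT livers the ranges met (log2 fold change 0.28, 95% interval 0.02 to 0.54, adjusted p = 0.0874). At 24 hours WT libraries held 2193, 2274, 2684 and 2422 CPM and SIRTintKO libraries 1138, 1561 and 2022 CPM, with all SIRTintKO livers below all WT livers. *Plg* thus went below its 0 hour level in SIRTintKO livers (log2 fold change -0.48, 95% interval -0.73 to -0.23, adjusted p = 0.00178), against a WT value of 0.14 (adjusted p = 0.451). *Serpinf2*, the main inhibitor of plasmin, passed no test in time, with log2 fold changes against 0 hours of -0.01 to 0.27. *Vtn*, vitronectin, an adhesive plasma protein that binds the terminal complement proteins, was at 2115, 2218 and 2734 CPM and 2111, 2327 and 2589 CPM at 0 hours and at 2824, 3427 and 3722 CPM and 4235, 3116, 2756, 3228 and 3353 CPM at 6 hours, without overlap between the times (log2 fold change 0.51, 95% interval 0.18 to 0.83, adjusted p = 0.0134 in WT, and log2 fold change 0.50, 95% interval 0.16 to 0.84, adjusted p = 0.0183 in SIRTintKO livers). WT libraries at 24 hours held 2718, 4596, 3471 and 3404 CPM and SIRTintKO libraries 1147, 1832 and 2762 CPM. Here the split of the WT libraries was another one, as replicate 1 was the lowest and below SIRTintKO replicate 5, and replicate 2 the highest. *Vtn* rose from 0 to 24 hours in WT livers (log2 fold change 0.60, 95% interval 0.24 to 0.97, adjusted p = 0.00916) and fell in SIRTintKO livers (log2 fold change -0.42, 95% interval -0.73 to -0.10, adjusted p = 0.0251). *Serpina1a*, an inhibitor of neutrophil elastase, passed no test (log2 fold changes against 0 hours -0.21 to 0.07). Its reads can be shared with *Serpina1b* to *Serpina1e*, and the sum of these genes fell at 24 hours by 0.59 in WT (adjusted p = 0.0136) and by 0.81 in SIRTintKO livers (adjusted p = 9.86e-05).

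In the lectin pathway, *Mbl2*, a mannose-binding lectin, was highly uneven at 24 hours. It held 141, 182 and 256 CPM and 156, 182 and 218 CPM at 0 hours and 124, 167 and 231 CPM and 121, 139, 153, 141 and 222 CPM at 6 hours in WT and SIRTintKO livers, with overlap. At 24 hours WT libraries ran from the lowest level of the series to the 0 hour range, at 13.04, 85.1, 129 and 185 CPM in replicate order, and SIRTintKO livers held 23.1, 33.2 and 121 CPM, the highest being replicate 5. The fall passed in SIRTintKO livers (log2 fold change -2.10, 95% interval -2.84 to -1.36, adjusted p = 2.33e-05) and not in WT livers (log2 fold change -0.87, 95% interval -1.73 to -0.01, adjusted p = 0.112). *Mbl1*, its paralog, had all 6 hour livers above the 0 hour livers in both genotypes, but the changes did not pass the test (0.55 in WT and 0.27 in SIRTintKO livers, adjusted p = 0.0818 and 0.433). At 24 hours it was lower in SIRTintKO livers (log2 fold change -0.75, 95% interval -1.23 to -0.26, adjusted p = 0.0097). The associated proteases went opposite ways: *Masp1* rose at 6 hours (0.42 in WT and 0.47 in SIRTintKO livers, adjusted p = 0.00488 and 0.00257), and *Masp2* fell at 24 hours (-0.70 and -1.10, adjusted p = 0.00196 and 4.19e-07). *C2*, which with C4b forms the classical and lectin convertase, fell in both genotypes at both times (-0.59 and -0.71 in WT, -0.43 and -1.11 in SIRTintKO livers at 6 and 24 hours). *Cfb*, factor B of the alternative pathway, passed no test in time (log2 fold changes against 0 hours 0.18 to 0.31).

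Of the roles with more than 1 gene, the terminal complement genes had the lowest median change at 24 hours in both genotypes: 4 of 5 passed in WT livers and 5 of 5 in SIRTintKO livers, with median log2 fold changes of -1.05 and -1.99. *C6* follows C5b in the assembly of the pore. Its levels were 238, 282 and 368 CPM and 289, 334 and 481 CPM at 0 hours and 168, 194 and 287 CPM and 164, 222, 298, 261 and 259.5 CPM at 6 hours in WT and SIRTintKO livers, which overlapped. By 24 hours the WT libraries held 72.2, 92.04, 149 and 178 CPM and SIRTintKO livers 22.4, 41.2 and 134 CPM, all below every 0 hour liver. The change was log2 fold change -1.25, 95% interval -1.94 to -0.56, adjusted p = 0.00526 in WT, and log2 fold change -2.55, 95% interval -3.14 to -1.96, adjusted p = 5.55e-08 in SIRTintKO livers, from a median of 334 to 41.2 CPM in the latter. *C9*, the subunit that polymerizes into the pore wall, held 463, 706 and 919 CPM and 679.9, 815 and 1079 CPM at 0 hours and 405, 557 and 716 CPM and 585, 569, 639, 498 and 602 CPM at 6 hours. It was at 179, 408, 488 and 487 CPM in WT libraries and at 104, 184 and 337 CPM in SIRTintKO livers at 24 hours. WT replicate 1 was among the SIRTintKO values and replicates 2 to 4 above all of them (log2 fold change -0.85, 95% interval -1.38 to -0.32, adjusted p = 0.0127 in WT, and log2 fold change -2.21, 95% interval -2.67 to -1.75, adjusted p = 9.46e-09 in SIRTintKO livers against 0 hours).

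The 3 chains of C8 did not move as a unit. *C8b* fell most, from 328, 390.1 and 479 CPM and 352, 468 and 613 CPM at 0 hours in WT and SIRTintKO livers through 265, 326 and 339.9 CPM and 312, 349.7, 396, 301 and 345 CPM at 6 hours to 93.9, 146, 259 and 272 CPM in WT libraries and 63.95, 124 and 197 CPM in SIRTintKO livers at 24 hours. No 24 hour liver reached the 0 hour range of its genotype (log2 fold change -1.05, 95% interval -1.57 to -0.54, adjusted p = 0.00178 in WT, and log2 fold change -1.99, 95% interval -2.42 to -1.55, adjusted p = 1.93e-08 in SIRTintKO livers). *C8g*, the chain of the lipocalin family, was already lower at 6 hours by the test (-0.56 in WT and -0.60 in SIRTintKO livers, adjusted p = 0.0444 and 0.0401). It held 314, 332 and 352 CPM and 288, 326 and 425 CPM at 0 hours, 157, 211 and 341 CPM and 216, 223, 226, 249 and 200.1 CPM at 6 hours, and 95.5, 134, 201 and 213 CPM in WT and 93.6, 162 and 309 CPM in SIRTintKO livers at 24 hours. The fall to 24 hours was of the same size in WT (log2 fold change -1.05, 95% interval -1.57 to -0.53, adjusted p = 0.00208) and SIRTintKO livers (log2 fold change -1.04, 95% interval -1.47 to -0.61, adjusted p = 1.80e-04). *C8a* changed by -0.01 in WT (adjusted p = 0.956) and by -0.42 in SIRTintKO livers (adjusted p = 0.0132).

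**Figure D4:**
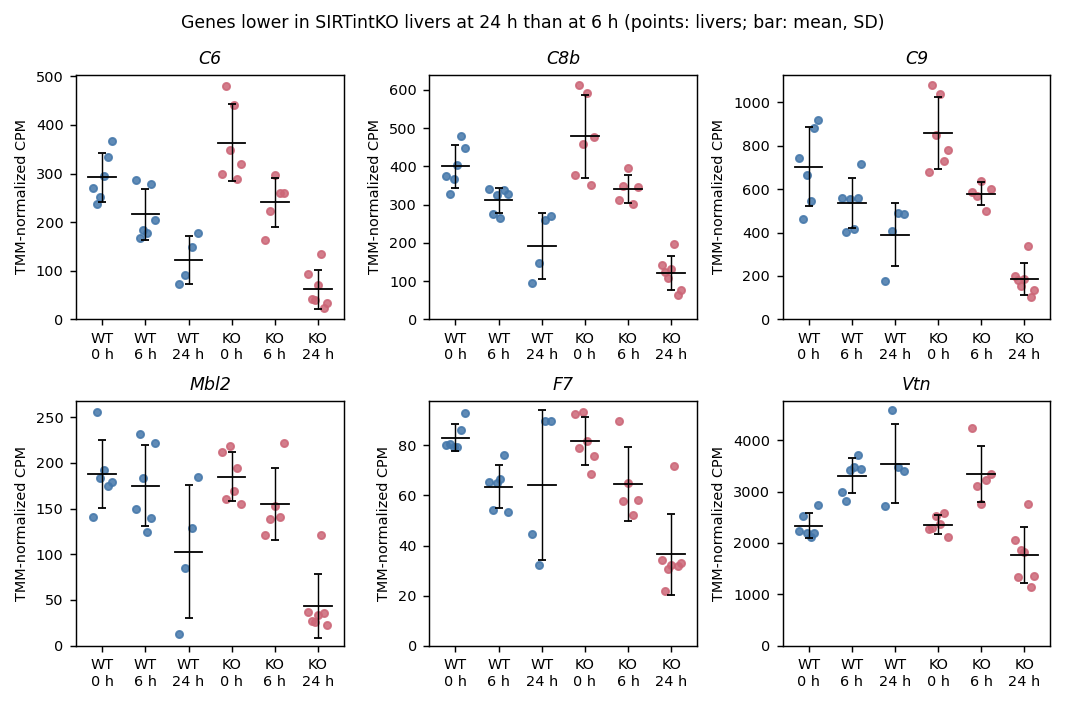
TMM-normalized CPM (vertical axis, from 0) of genes that were lower at 24 than at 6 hours after PHx in SIRTintKO livers. Values are shown by genotype and time (horizontal axis), with 1 point per library and a bar at the group mean with its SD. *C6* and *C8b* are below the 0 hour libraries in every 24 hour library. For all of these genes but *Vtn*, WT replicates 3 and 4 lie closest to the 0 hour level at 24 hours.

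The calls in WT livers at 24 against 0 hours depended on the pair kept. All 20 genes past the test over the 4 libraries passed without WT replicates 3 and 4. Without replicates 1 and 2, 5 of the 8 higher genes and 1 of the 12 lower genes, *Proc*, passed. For the terminal complement genes the log2 fold changes without replicates 3 and 4 and then without replicates 1 and 2 were -1.82 and -0.84, adjusted p = 0.272 for *C6*, -1.72 and -0.59, adjusted p = 0.216 for *C8b*, -1.52 and -0.69, adjusted p = 0.199 for *C8g*, and -1.24 and -0.53, adjusted p = 0.344 for *C9*, where each p belongs to the second value. In the same order they were -1.76 and -0.62, adjusted p = 0.193 for *F13b*, -1.91 and -0.26, adjusted p = 0.797 for *Mbl2*, -1.92 and -0.08, adjusted p = 0.897 for *Proz*, and -1.24 and -0.30, adjusted p = 0.303 for *Masp2*. The rises of *Fga*, *Fgb*, *Fgg*, *C3* and *Pros1* passed with either pair, at 2.39 and 1.21 for *Fga* and 1.90 and 1.60 for *C3*, and those of *Cpb2* (1.69 and 0.41, adjusted p = 0.284), *C4b* and *Vtn* without replicates 3 and 4 only. In SIRTintKO livers 31 genes passed without replicate 5, beside 52.6% of all genes, against 30 with it, and values moved away from 0 for *C6* (-2.55 to -2.87), *Mbl2* (-2.10 to -2.62) and *F7* (-1.17 to -1.42).

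The times after PHx were also compared with each other, which involves libraries of 1 number series. In SIRTintKO livers 26 of the 38 genes were lower at 24 than at 6 hours and 1, *F11*, was higher, beside 14.4% and 13.2% of all genes. The median log2 fold change was -0.58 over the 38 genes and -0.01 over all genes. For 14 of the 38 the groups did not overlap, all lower, against 5.01% of all genes (*C2*, *C4b*, *C6*, *C8b*, *C9*, *F12*, *F13b*, *F2*, *F9*, *Fga*, *Fgb*, *Masp2*, *Plg* and *Proc*). The largest falls were in *C6* (-1.96), *Mbl2* (-1.84), *C9* (-1.64), *C8b* (-1.500) and *Mbl1* (-1.02). In WT livers 0 of the 38 passed the test of edgeR, beside 16.5% of all genes, while 8 had an unadjusted p under 0.05 (30.2% of all genes) and DESeq2 called 1 (18.9% of all genes). Without WT replicates 3 and 4, 14 passed (33.1% of all genes), and without replicates 1 and 2, 4 did (9.53%). Leaving out WT replicate 2 alone gave 4, all higher, WT replicate 3 or 4 alone gave 3, all lower, SIRTintKO replicate 5 gave 2, and SIRTintKO replicate 6 or 7 gave 1, with 12.4% to 19.1% of all genes past the test in these fits.

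Leaving out 1 library at a time kept most of these calls, with the following exceptions. At 6 hours against 0 hours in WT livers, *C4b*, *C4bp*, *C8g* and *F13b* were near the threshold and missed it in 10, 10, 10 and 8 of the 34 fits (log2 fold changes 0.27 to 0.45, 0.47 to 0.59, -0.71 to -0.50 and -0.66 to -0.51 over the fits). In SIRTintKO livers *C8g* missed it in 6 fits (-0.68 to -0.56), and without replicate 1 at 6 hours *Plg* (0.26) and *Vtn* (0.36) did. *Plg* also missed it without SIRTintKO replicate 5 at 0 hours. At 24 hours against 0 hours, *C9* missed it without WT replicate 1 (-0.60), *F5* (-0.23), *Serpinc1* (-0.35) and *Vtn* (0.46) without WT replicate 2, and *C4b* without either of these (0.41 to 0.51 over the fits). *F5* and *C4b* also missed it without some WT libraries of 0 hours, and *Proz* in 11 fits (-1.02 to -0.41). In SIRTintKO livers at 24 hours *Cpb2* missed it without replicate 1 or 2 or replicate 5 at 0 hours (0.43 to 0.64 over the fits), and *Vtn* without replicate 2, 6 or 7 (-0.56 to -0.30). For 24 against 6 hours in SIRTintKO livers, *Cfi*, *Fgg*, *Fgb*, *Cpb2* and *Serpinc1* missed it in 1, 2, 4, 5 and 29 fits, among them the fit without replicate 1 at 6 hours for all but *Fgg*.

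To ask whether the intestinal deletion changed these genes in the liver, the genotypes were compared at each time. At 24 hours after PHx, 12 of the 38 genes were lower in SIRTintKO than in WT livers and 0 were higher by edgeR, where 3.51% of all genes were lower and 2.3% higher. The difference was negative for 33 of the 38, with a median of -0.44 against -0.02 over all genes. The 12 were the 4 zymogens *F2* (difference -0.51, 95% interval -0.74 to -0.28, adjusted p = 0.0102), *F7* (difference -0.81, 95% interval -1.28 to -0.35, adjusted p = 0.0321), *F9* (difference -0.62, 95% interval -0.95 to -0.29, adjusted p = 0.0234) and *F10* (difference -0.70, 95% interval -1.10 to -0.31, adjusted p = 0.0295), and the fibrinogen chains *Fga* (difference -0.86, 95% interval -1.30 to -0.41, adjusted p = 0.0213) and *Fgg* (difference -0.73, 95% interval -1.18 to -0.28, adjusted p = 0.045). The others were *Pros1* (difference -0.63, 95% interval -0.96 to -0.30, adjusted p = 0.022), *Plg* (difference -0.65, 95% interval -0.93 to -0.37, adjusted p = 0.00779), *Vtn* (difference -1.004, 95% interval -1.35 to -0.66, adjusted p = 0.00201), *C3* (difference -0.61, 95% interval -0.93 to -0.28, adjusted p = 0.0243), *C4b* (difference -0.64, 95% interval -0.94 to -0.33, adjusted p = 0.0146) and *C9* (difference -1.07, 95% interval -1.56 to -0.57, adjusted p = 0.0132). *Vtn* and *C9* alone also passed the log2 threshold of 1, as did 1.3% of all genes on the lower side. The groups did not overlap for *C3*, *C4b* and *Plg*, against 1.05% of all genes that were lower without overlap. *Mbl2* (difference -1.25, 95% interval -2.05 to -0.46, adjusted p = 0.0511) and *C6* (difference -0.99, 95% interval -1.62 to -0.36, adjusted p = 0.0527) had differences of similar or larger size and did not pass. Of the cell type markers, 1 hepatocyte marker of 11 was higher and 1 lower in SIRTintKO livers at 24 hours, and 1 of 6 neutrophil, 2 of 7 monocyte or macrophage and 1 of 5 Kupffer cell markers were higher. The part of these cells in the differences was not tested.

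Which genes differed between the genotypes at 24 hours depended on which WT pair was kept. Without WT replicates 3 and 4, 13 genes passed, beside 18.6% of all genes. *Fga* (-1.36, adjusted p = 1.21e-04), *Fgg* (-1.24, adjusted p = 3.14e-04), *Cpb2* (-1.15, adjusted p = 2.62e-04), *Fgb* (-1.06, adjusted p = 6.34e-04) and *Pros1* (-0.99, adjusted p = 2.56e-04) then had large negative differences, and *Serpind1* (1.01, adjusted p = 0.0476) and *Proz* (0.87, adjusted p = 0.0156) were higher in SIRTintKO livers. Without WT replicates 1 and 2, 22 passed, 21 of them lower, beside 17% of all genes. *Mbl2* (-1.86, adjusted p = 0.0011), *C6* (-1.40, adjusted p = 0.00868), *C9* (-1.39, adjusted p = 0.00104), *F7* (-1.30, adjusted p = 5.94e-04) and *F10* (-1.08, adjusted p = 0.00138) then led, *Proz* was lower (-0.96, adjusted p = 0.0014), and the fibrinogen genes were not past the test (-0.16 for *Fga*, 0.13 for *Fgb* and -0.01 for *Fgg*). *F2*, *Plg* and *Vtn* were lower against either pair, at -0.45 and -0.60, -0.58 and -0.75, and -1.08 and -0.96. Leaving out SIRTintKO replicate 5 gave 20 genes (19 lower and *F11* higher), beside 12.5% of all genes, and leaving out SIRTintKO replicate 6 gave 7, beside 3.35%. With any 1 library left out, *F2*, *Plg*, *Vtn*, *C4b* and *C9* passed in all 34 fits. Of 10 alternatives in threshold, test, scaling, filter, block or grouping, *F2* kept its call in 6, *Plg* and *C4b* in 7 and *Vtn* and *C9* in 8. The other genes past the test kept theirs in 5 or 6. *Fga* did not pass without WT replicate 2 (-0.49, adjusted p = 0.164) and *Fgg* did not pass without it either (-0.33, adjusted p = 0.339), nor in 9 other fits, 5 of them without a library of another time (-0.73 to -0.62). *C3* was lost without WT replicate 1 (-0.49, adjusted p = 0.0643) or SIRTintKO replicate 6 (-0.56, adjusted p = 0.052), and *Pros1* without WT replicate 1 or 2 or SIRTintKO replicate 6 (-0.57 to -0.48). *F9* was lost without WT replicate 3 (-0.55, adjusted p = 0.0564) or 4 (-0.50, adjusted p = 0.0904), and *F7* and *F10* without either of them or SIRTintKO replicate 2, 3, 6 or 7 (-0.80 to -0.61 for *F7* and -0.68 to -0.54 for *F10*). When only the 2 groups at 24 hours were fitted, so that the spread came from these groups alone, 0 of the 38 genes and 0% of all genes passed.

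**Figure D5:**
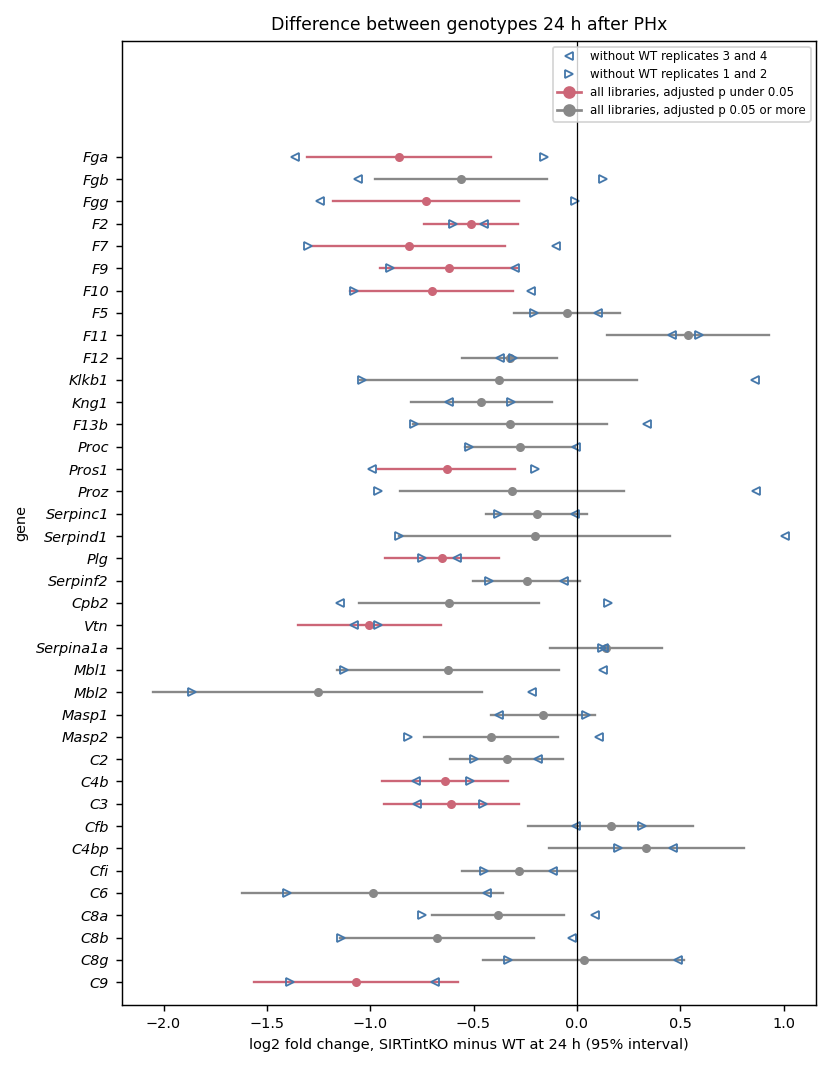
Difference between SIRTintKO and WT livers 24 hours after PHx for each of the 38 genes (log2 fold change on the horizontal axis, negative for lower in SIRTintKO). Filled points and lines give the value and 95% interval over all libraries, red for the 12 genes past the test, and open symbols the values with WT replicates 3 and 4 or 1 and 2 left out. Points are negative for 33 genes, and the open symbols of *Serpind1* and *Proz* lie on opposite sides of 0.

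At 0 hours and at 6 hours 0 of the 38 genes differed between the genotypes by edgeR, with 0 by DESeq2, and 0% of all genes passed. Of the 38, 0 had an unadjusted p under 0.05 at either time, beside 1.07% of all genes at 0 hours and 6.52% at 6 hours. Differences over the 38 ran from -0.09 to 0.31 at 0 hours and from -0.21 to 0.22 at 6 hours. The 95% interval was -0.39 to 0.39 for *Fgb* at 0 hours, for example, which leaves room for differences within that range. Genes with a larger spread between libraries have wider intervals. The interaction asks whether the change from 0 hours was larger in 1 genotype than in the other. At 6 hours it passed for 0 members and 0% of all genes, with 0 members and 3.05% of all genes at an unadjusted p under 0.05. At 24 hours it passed for 0 members and 0.00668% of all genes by edgeR and for 4 members by DESeq2 (0.781% of all genes), and 19 members had an unadjusted p under 0.05 (12.7% of all genes). Between 6 and 24 hours it passed for *Vtn* (difference -1.01, 95% interval -1.503 to -0.53, adjusted p = 0.0423), beside 0.581% of all genes, with 7 members and 3.16% of all genes by DESeq2. With 1 library left out the *Vtn* difference ran from -1.16 to -0.86 and missed the threshold in 23 of 34 fits (largest adjusted p = 0.0971, without WT replicate 2 at 24 hours), and 10 members passed without SIRTintKO replicate 5, beside 4.41% of all genes. The changes within each genotype given above share the 0 hour or 6 hour libraries with this test.

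Of 32 other clotting and fibrinolysis genes, most of them not specific to hepatocytes, 31 were tested. At 6 hours against 0 hours 15 were higher and 4 lower in WT livers (18.9% and 18.5% of all genes) and 14 and 5 in SIRTintKO livers (20.9% and 17.6%). At 24 hours 14 were higher and 6 lower in WT (19.5% and 14.6%) and 14 and 11 in SIRTintKO livers (26.2% and 24%). The protease inhibitors *A2m* and *Serpina3n* rose more than 2-fold at 6 hours in both genotypes (log2 fold changes 6.46 and 5.91 for *A2m*), and *Mug1* fell (-1.04 and -1.01). Between the genotypes at 24 hours, *F13a1* (1.86), *Procr* (1.77), *Thbd* (1.59) and *Vkorc1l1* (0.49) were higher and *Serping1* (-0.54) lower in SIRTintKO livers. Of 29 other complement genes 28 were tested. In WT livers 3 were higher and 8 lower at 6 hours and 3 and 14 at 24 hours, and in SIRTintKO livers 4 and 9 and then 5 and 14, to be read beside the same shares of all genes. *C4a* fell more than 2-fold in both genotypes at both times (-3.11 and -1.55 at 6 hours), and the lectin pathway gene *Colec10* and the ficolin gene *Fcna* at 24 hours (-2.03 and -2.77, and -1.82 and -1.62). Between the genotypes at 24 hours 3 were higher and 4 lower in SIRTintKO livers, 3 and 1 of them by more than 2-fold. The higher ones were the receptors *C3ar1* (1.60) and *C5ar1* (1.54) and the inhibitor *Cd55* (1.60), and *Cpn1* (-0.69) and *Hc* (-0.68), which encodes C5, were among the lower ones. The higher genes are expressed on leukocytes and vessel cells as well. In this comparison 1 of 6 neutrophil, 2 of 7 monocyte or macrophage and 1 of 5 Kupffer cell markers were higher. The share of all genes that were higher was 2.3%. Log2 fold changes ran from 0.63 to 2.34 for neutrophil, 0.46 to 1.73 for monocyte or macrophage and -0.08 to 2.28 for Kupffer cell markers. The part of these cells in the higher genes was not tested. The calls of both lists come from the fit over all libraries, and whether they depend on the WT pair kept at 24 hours was not tested. With only the 2 groups at 24 hours fitted, 0% of all genes passed between the genotypes.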

How the data were processed

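Liver RNA was sequenced as polyA libraries. The values deposited by the authors are expected counts, which Salmon estimated per gene after STAR alignment in the nf-core pipeline, merged into 1 table and not normalized for depth or length. GRCm39 is the build in the submitters' processing notes. Of the counts, 4.97% were not whole and were rounded. Of 35 columns, 1 matched no label and was not used. The study's text counts more WT livers at 24 hours than the labels do, and whether that column is one of them is not known. Gene symbols had lost the letter x, and 1255 were restored by gene identifier from GENCODE vM21 names. Libraries held 14892122 to 23480492 counts, and the lowest count of a member in any library was 212, so intervals reflect the spread between libraries more than counting error.

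In R 4.3.3, edgeR 4.0.16 was run with TMM scaling, filterByExpr by group (14980 genes kept) and a quasi-likelihood fit with 1 mean per genotype and time over all 34 libraries (common biological coefficient of variation 0.302). Adjusted p-values are Benjamini-Hochberg values over all genes. Intervals are 95%. The study's model (DESeq2, run here in version 1.42.0) was an alternative. CPM values in the text are TMM-normalized. P-values measure the spread between these libraries, which the labels do not tie to separate mice. That spread is estimated for each gene over all 6 groups together. WT livers at 24 hours were more uneven than other groups for many members. For *Fgb* the SD was 49.7% of the mean there and 4.55% in WT livers at 6 hours. *Serpina1a* went the other way (4.22%, against 9.09% in WT livers at 0 hours). P-values and intervals that involve WT livers at 24 hours may therefore look too firm. Scripts were tested on simulated counts.

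The members and lists were chosen with earlier results of these data known. Group values are given for members past both thresholds in both genotypes, for members past the test between genotypes, and for the member of each role with the largest mean change from 0 hours, and other members by ranges or fold changes. Genes of other lists are named where they passed both thresholds in both genotypes, largest first. The genes of these lists named between genotypes at 24 hours are those past the test, and were chosen after their values were seen. Some genes of these lists are counted but not reported by name here. Alternatives were other scaling and filters, DESeq2, glmTreat, a replicate block, fewer groups, sums of paralogs and leaving out libraries. Sequences are from RefSeq, GRCm38.p6.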

Additional observations from a re-analysis of the deposited data

Results flagged for a closer look

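In SIRTintKO livers at 24 hours, replicate 5 was far above the other 6 libraries for 5 members: *Cfi* (469.6 CPM, others 361.5 to 380.1), *F10* (432.4 CPM, others 141.6 to 221.2), *F7* (71.65 CPM, others 21.65 to 34.14), *F9* (159.9 CPM, others 73.28 to 94.38) and *Mbl2* (121.3 CPM, others 23.12 to 36.49). WT replicate 2 at 0 hours was far below the rest of its group for *F13b* (71.2 CPM, others 111.6 to 127.9) and *F5* (178.4 CPM, others 224.8 to 239.6), and WT replicate 2 at 24 hours for *F5* (122.1 CPM, others 185.4 to 198). At 6 hours, WT replicate 5 was high for *F9* (205.2 CPM, others 173.8 to 183.6), WT replicate 6 low for *Fga* (14440 CPM, others 22903 to 25912), WT replicate 4 low for *Proc* (269.3 CPM, others 329 to 349.2) and SIRTintKO replicate 1 high for *Plg* (3552 CPM, others 2471 to 2709). SIRTintKO replicate 6 at 0 hours was low for *Proz* (280.4 CPM, others 313.2 to 332.7). These are 13 of 228 sets of a gene in a group tested by the gap to the nearest library over the range on the log2 scale, and chance gives about 1 in 20.

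*Vtn* changed differently in the genotypes between 6 and 24 hours (interaction -1.014, past the test of edgeR). From 0 to 24 hours every WT library was above the 0 hour mean of WT for *Plg* and every SIRTintKO library below that of SIRTintKO, a difference of -0.6211 on the log2 scale that did not pass the test of the difference itself (adjusted p = 0.179).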

How the results depend on the processing

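Results are grouped by the setting that moved them. The share of all genes past the test moved with the setting as well. Between the genotypes at 24 hours it was 18.6% without WT replicates 3 and 4 and 17% without replicates 1 and 2. Over all libraries 3.51% of all genes were lower and 2.3% higher. Counts of members given here without that share therefore do not describe the members alone. The gene definition of the study (log2 fold change over 1 in size as well) left 8 of the 38 genes at 6 hours against 0 hours in each genotype, 11 (WT) and 16 (SIRTintKO) at 24 hours against 0 hours, 5 at 24 against 6 hours in SIRTintKO livers and 2 between the genotypes at 24 hours. With glmTreat, which tests against the threshold itself, these counts were 5, 4, 4, 4, 1 and 0. For the genotypes at 24 hours, keeping every gene with at least 1 count gave 5 genes, the replicate block 6, only the groups compared 0 and leaving out WT replicates 1 and 2 22. The block of replicate numbers had no support in the data: 76 pairs of libraries with the same number in different groups had correlations of -0.306 to 0.217 (median -0.0036), 6 of them over 0.1. For WT livers at 24 against 6 hours, DESeq2, upper-quartile scaling and a minimum of 10 counts in every library each gave 1 gene, leaving out WT replicates 3 and 4 14, replicates 1 and 2 4, and replicates 3 and 4 with SIRTintKO replicate 5 15. Against 0 hours the WT count at 24 hours was 6 without WT replicates 1 and 2. The interaction at 24 hours passed for 4 genes with DESeq2 (0.781% of all genes). It passed for 8, 14 and 8 in the same 3 fits that left out libraries, which were chosen after seeing the data. The interaction between 6 and 24 hours passed for 7 with DESeq2 (3.16% of all genes) and for 9, 16 and 10 in those fits. It passed for 0 with upper-quartile scaling, at least 1 count, glmTreat, the replicate block or only the groups compared. The cause was not tested. Signs turned for *Proz* (0.87 without WT replicates 3 and 4, and 0.76 without SIRTintKO replicate 5 too) and *Serpind1* (1.01 without WT replicates 3 and 4) between the genotypes at 24 hours, and for *F7* in WT livers at 24 against 6 hours (-0.70 and -0.71 in the fits that left out WT replicates 3 and 4), and with 1 library left out these values ran from -0.63 to -0.02 for *Proz*, from -0.57 to 0.11 for *Serpind1* and from -0.19 to 0.25 for *F7*. With 1 library left out, the counts ran from 14 to 20 (WT) and 17 to 21 (SIRTintKO) at 6 hours, 17 to 23 and 28 to 31 at 24 hours, 0 to 4 and 23 to 28 at 24 against 6 hours, 7 to 20 between genotypes at 24 hours, 0 to 0 between them at 0 and at 6 hours and for the interaction at 6 hours, and 0 to 10 for each of the other interactions.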
